A study of Mus musculus with 54 samples.

Results

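Mouse day 2 primordial germ cell-like cells (PGCLC) that carry an Ovol2a transgene were compared with PGCLC of a line labelled TKO, by sequencing their poly(A) mRNA. The members are 4 of the 54 libraries of the series, 2 labelled Ovol2a-Tg and 2 labelled TKO, chosen by these labels. Each of 9 lines of 1 mixed strain, C57BL/6 X 129/SvJ, was sampled as embryonic stem cells (ESC), as epiblast-like cells (EpiLC) and on day 2 of PGCLC induction. The 3 groups used most are Ovol2a-Tg PGCLC, whose genotype is given as overexpression of Ovol2a, TKO PGCLC, and wild-type (WT) PGCLC. Ovol2b-Tg PGCLC and the EpiLC and ESC of the same lines serve as further references. The labels do not spell out TKO, name neither the promoter of the transgene nor the line it was put into, and do not say whether a line is 1 clone. Nor do they state that the 2 libraries of a group came from separate cultures, so p-values measure the spread between libraries, which may be technical.

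PGCLC are the culture model of the founding germ cells. They arise from EpiLC, the counterpart of the early epiblast, among cells that turn to mesoderm under bone morphogenetic protein (BMP) and WNT signals. The Ovol genes code for zinc finger proteins that mostly repress transcription, and Ovol2 is known to hold cells in an epithelial state by repressing genes of the epithelial to mesenchymal transition (EMT), Zeb1 among them. The Ovol2 gene makes several protein isoforms, and the transgene lines are named after 2 of them.

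The PGCLC libraries held 26728538 and 23550996 gene reads in Ovol2a-Tg, 2936638 and 12336240 in TKO and 5217720 and 6943661 in WT, as recovered from the deposited TPM (a level per transcript length, scaled to the same total in each library, that gives a share of the mRNA). In bulk mRNA of this kind, fewer cells of a type and less RNA per cell cannot be told apart. The cell type tag of both Ovol2a-Tg PGCLC libraries reads EpiLC, while their titles read PGCLC. The measured markers go with the title: T (Brachyury), a gene of the streak that PGCLC induction switches on, had 897 and 651 TPM in them, against 0.869 and 0.865 TPM in the EpiLC of the same line. The summed TPM of 6 germ cell markers was 97.5 to 103 in Ovol2a-Tg, 64.8 to 73.9 in TKO and 158 to 164 in WT. A 6-gene list of streak and mesoderm genes summed to 1583 to 1731 in Ovol2a-Tg, 2299 to 2353 in TKO and 1667 to 1684 in WT. Of this, T alone had 519.6 and 445 TPM in TKO and 1159 and 1279 TPM in WT, while Hand1 and Foxf1 were highest in TKO. The sum thus mixes opposite directions and does not rank the lines. All of these day 2 cultures held streak or mesoderm mRNA beside the germ cell signal. A 6-gene fibroblast list summed to 70.8 to 136 in Ovol2a-Tg, 256 to 272 in TKO and 13.8 to 20.5 in WT, with Dcn at 0 in both TKO libraries, and 3 neural markers stayed at or below 1.47 in all 6.

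The 2 Ovol2a-Tg PGCLC libraries differed in how far they lay from TKO. Across all tested genes, replicate 1 correlated more with the WT mean (r = 0.9859) than with the TKO mean (0.9801). For replicate 2 the order was the reverse, with 0.9874 for TKO and 0.9795 for WT. The reads of the Ovol2a-Tg pair differed beyond counting error, with a chi-square per degree of freedom of 10.87. It was 2.062 in the TKO pair and 2.74 in the WT pair. This value also grows with depth, which was greatest in the Ovol2a-Tg pair. The p-values against TKO rest on a spread estimated over all 18 PGCLC libraries, not from this pair alone. Where this pair differs more than the others do, the shared spread and the SE can understate its error. Replicate 1 lay farther from TKO than replicate 2 did in 230 of the 272 genes called higher and in 187 of the 203 called lower. The median distance from TKO of the genes called higher was 1.41 log2 units in replicate 1 and 1.14 in replicate 2, and that of the genes called lower was 1.53 in replicate 1 and 1.09 in replicate 2. Ovol2 itself did not follow this order by much, at 900.4 and 867 TPM in replicates 1 and 2.

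**Figure D1:**
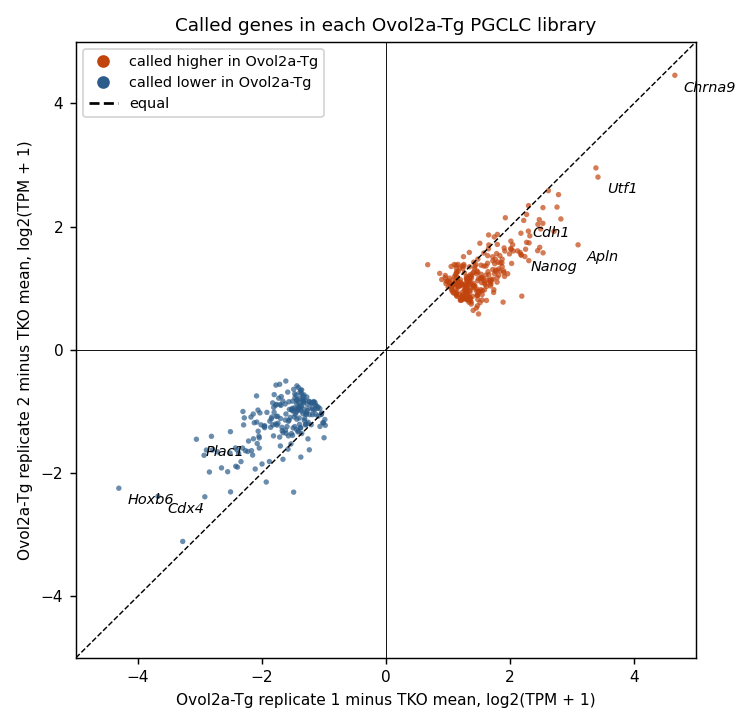
Difference of each Ovol2a-Tg PGCLC library from the TKO mean in log2(TPM + 1), replicate 1 on the x axis and replicate 2 on the y axis, for the genes called higher or lower in Ovol2a-Tg, with the dashed line marking equal differences. Ovol2 lies beyond the axes and was left out. Most of the genes called lower lie above the line and most of those called higher below it, so replicate 1 was farther from TKO, as in 187 of 203 and 230 of 272 genes.

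In the comparison of Ovol2a-Tg with TKO, 475 of 14416 genes were called, which is 3.29% of those tested. A call required a Benjamini-Hochberg (BH) adjusted p under 0.05 in limma, over all tested genes, and a log2 fold change of 1 or more in size on log2(TPM + 1), a scale that understates the change of scarce genes. The calls comprised 272 genes higher in Ovol2a-Tg (1.89% of those tested) and 203 lower (1.41%). Separation of the libraries alone is common with 2 against 2: the libraries of Ovol2a-Tg and TKO did not overlap in 60.2% of all tested genes, 28.9% with Ovol2a-Tg above and 31.3% with it below. Without Ovol2a-Tg replicate 1 there were 215 calls, 125 higher and 90 lower, and 205 of them were among the 475. Without Ovol2a-Tg replicate 2 there were 594. Each of the 475 genes kept its direction under both, as under all other settings tried. This was close to fixed in advance, since the genes were chosen for a large difference in these same libraries.

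Ovol2 showed the largest difference of any called gene. Its reads come from 1 row that covers both isoforms and the transgene (chr2:144305175-144332146 of GRCm38, minus strand, in the GENCODE annotation). The level was 900.4 and 867 TPM in Ovol2a-Tg, 1.52 and 0.835 TPM in TKO and 11.3 and 6.98 TPM in WT. Both transgenic libraries stood far above both TKO libraries and above WT, with a log2 fold change of 8.69 ± 0.27 (SE, adjusted p = 1.96e-10) against TKO and 6.48 ± 0.27 against WT. The other family members were not called: Ovol1 had 1.02 and 0.844 TPM in Ovol2a-Tg, against 0 and 0.504 TPM in TKO, and Ovol3 had 8.99 and 6.91 TPM in Ovol2a-Tg, against 5.76 and 5.53 TPM in TKO. Transcripts of all 3 genes were thus still counted in the line labelled TKO, Ovol2 from 3 and 7 reads; the row's reads do not show whether they could make protein.

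**Figure D2:**
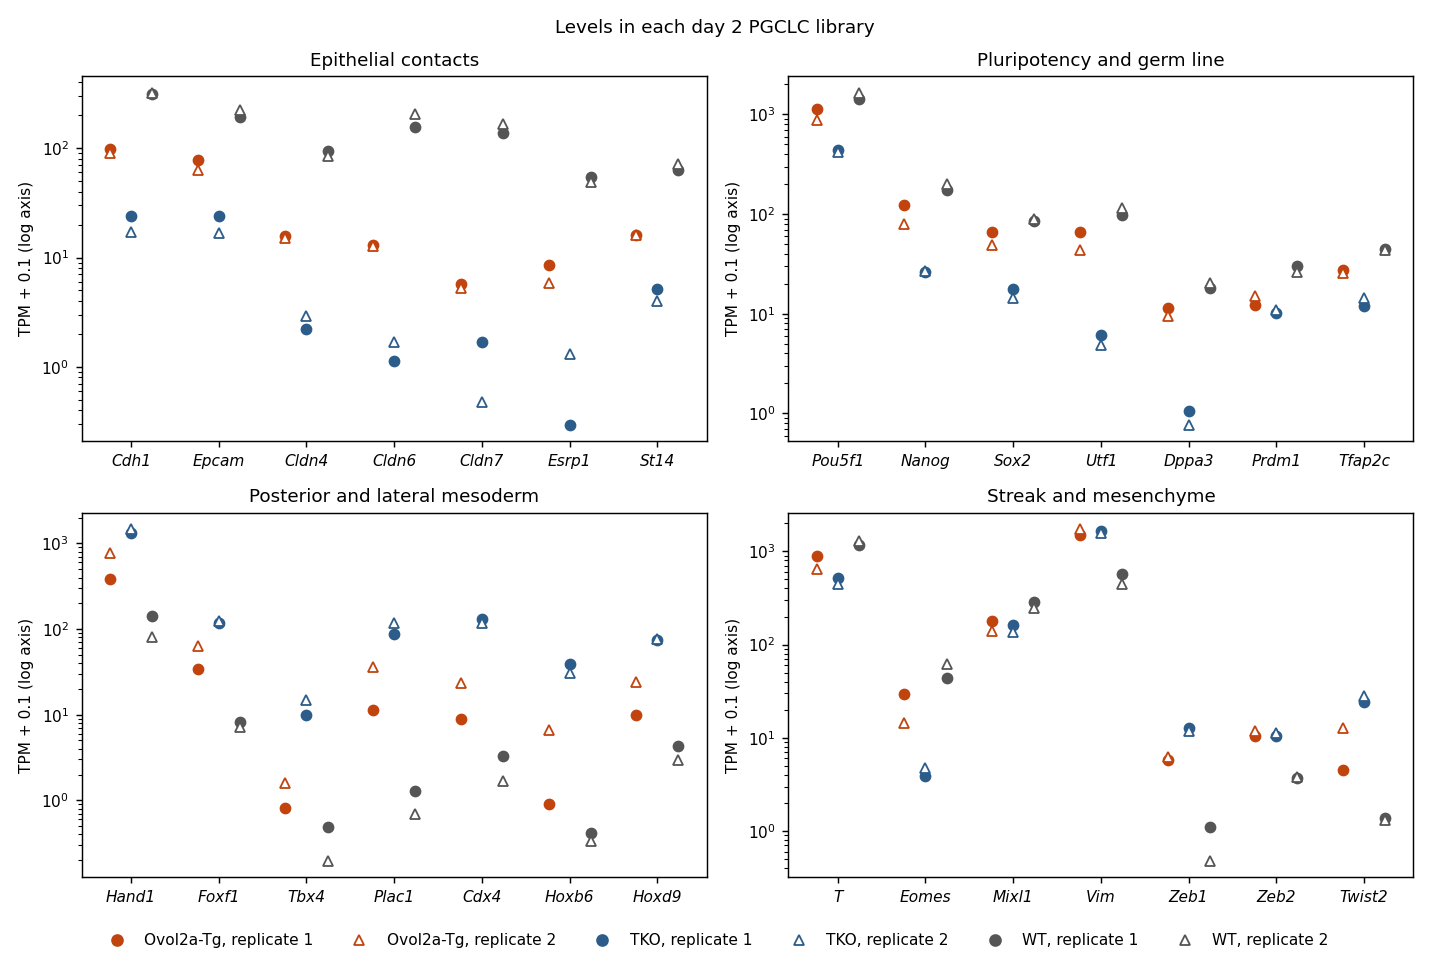
TPM + 0.1 (log axis) of 28 genes in each day 2 PGCLC library of Ovol2a-Tg, TKO and WT, with circles for replicate 1 and triangles for replicate 2. Epithelial genes of Ovol2a-Tg lie between the levels of TKO and WT. So do Pou5f1, Nanog, Sox2 and Utf1, nearer to WT on the log axis, while Prdm1 lies nearer to TKO. For genes such as Hoxb6 and Cdx4 the 2 Ovol2a-Tg libraries lie far apart below TKO.

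The genes of epithelial cell contacts were higher in Ovol2a-Tg and yet far below WT. Of 22 tested genes of adherens and tight junctions, 9 rose against TKO and none fell, with a median log2 fold change of 0.84 against -0.0075 for all tested genes. Cdh1, which encodes E-cadherin, the adhesion protein of adherens junctions (chr8:106603351-106670246, plus strand), had 98.4 and 90.3 TPM in Ovol2a-Tg, 24 and 17.2 TPM in TKO and 312 and 319.7 TPM in WT. The 3 groups did not overlap, and the difference from TKO was 2.16 ± 0.11 (SE, adjusted p = 5.68e-08), that from WT -1.73 ± 0.11 (adjusted p = 2.86e-07). Epcam, an epithelial surface adhesion protein, followed the same order with 78 and 62.6 TPM in Ovol2a-Tg, 23.7 and 16.8 TPM in TKO and 195 and 224 TPM in WT. The claudins, which seal tight junctions, were scarce in TKO. Cldn6 had 13 and 12.7 TPM in Ovol2a-Tg, 1.03 and 1.58 TPM in TKO and 157 and 206 TPM in WT, from 2 and 13 reads in TKO. Cldn7 had 5.56 and 5.19 TPM in Ovol2a-Tg, 1.6 and 0.378 TPM in TKO and 138 and 167 TPM in WT, from 3 reads in each TKO library. Cldn4 had 15.7 and 14.9 TPM in Ovol2a-Tg, 2.14 and 2.83 TPM in TKO and 93.5 and 85.3 TPM in WT. All 3 were called against TKO (log2 fold changes 2.60, 1.75 and 2.23), and all 3 stayed well below WT. Cldn3 had 1.24 and 1.42 TPM in Ovol2a-Tg and no read in either TKO library, which makes it at least 3.78-fold higher against a floor of 3 reads over the TKO pair. Ocln, which encodes the tight junction protein occludin, had 111 reads in Ovol2a-Tg and 3 in TKO, a ratio of about 11 with a 95% counting interval of 3.67 to 54.2. Cgn and Crb3, of the tight junction plaque and the apical membrane, were the other 2 that rose. The count was 8 of 22 without Ovol2a-Tg replicate 1, with Ocln at 1.10 no longer called (adjusted p = 0.0913), and without TKO replicate 1 Ocln was lost as well (adjusted p = 0.0575). Against WT, 14 of the same 22 genes were lower in Ovol2a-Tg and none was higher, beside 1.33% lower and 2.09% higher among all tested genes.

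Epithelial regulators and enzymes changed in the same direction. Of 18 tested, 7 rose against TKO and none fell, with a median of 0.84. Esrp1, which directs epithelial splicing, had 8.36 and 5.72 TPM in Ovol2a-Tg, 0.195 and 1.2 TPM in TKO and 54.9 and 49.3 TPM in WT. Its 2 TKO libraries rest on 1 and 26 reads, and both lie under both Ovol2a-Tg libraries (log2 fold change 2.29 ± 0.24, adjusted p = 2.92e-05). St14, the membrane protease matriptase, had 16 and 15.9 TPM in Ovol2a-Tg, 5.01 and 3.87 TPM in TKO and 63.5 and 71 TPM in WT. Spint2, an inhibitor of that protease, had 108 and 97 TPM in Ovol2a-Tg, 44 and 48.3 TPM in TKO and 292 and 280.1 TPM in WT. For both, Ovol2a-Tg was again clear of TKO on one side and of WT on the other. Grhl2, a transcription factor that drives epithelial genes, had 3.05 and 3.47 TPM in Ovol2a-Tg, 1.57 and 0.555 TPM in TKO and 11.1 and 12 TPM in WT, and its relative Grhl3 had 5.23 and 4.61 TPM in Ovol2a-Tg, 2.51 and 1.18 TPM in TKO and 10.3 and 10.2 TPM in WT. Ap1m2, which encodes the epithelial sorting adaptor, rose little in TPM terms, with 4.41 and 2.87 TPM in Ovol2a-Tg, against 1.34 and 0.947 TPM in TKO, while WT had 106 and 118 TPM. Esrp2 had 1.73 and 2.22 TPM in Ovol2a-Tg, against 0.869 and 1.1 TPM in TKO and Grhl1 1.0 and 0.507 TPM in Ovol2a-Tg, against 0.219 and 0.363 TPM in TKO, and neither was called. When Ovol2a-Tg replicate 1 was left out, 4 of 18 were called, and Grhl3 at 1.02 and Ap1m2 at 0.86 were among those lost. Without TKO replicate 2, Grhl2 (0.73), Grhl3 (0.75) and Ap1m2 (0.97) were lost. In the fit of the 4 libraries alone 4 of 18 were called, without Grhl2 (adjusted p = 0.0696), Grhl3 (adjusted p = 0.0628) and Ap1m2 (adjusted p = 0.0519). With pseudocount 0.1 in place of 1, Cldn6 passed the fold but not the test (adjusted p = 0.0835). The keratin list behaved differently: none of its 7 tested members was called. Krt8 had 419.6 and 684 TPM in Ovol2a-Tg, 471 and 510.2 TPM in TKO and 580.2 and 530.4 TPM in WT, with overlapping libraries, and Krt18 307 and 453 TPM in Ovol2a-Tg, 255 and 265 TPM in TKO and 355 and 314 TPM in WT.

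The promoters of these epithelial genes often held the E-box CAGGTG, the sequence that the EMT repressors of the Zeb and Snail families bind. The 250 bases before the start of each gene were searched on both strands, so CACCTG counts as a match; the sequences are those of RefSeq on GRCm38.p6, matched by symbol for 10928 of the 14416 tested genes. The E-box was chosen after the values were seen, and its shares are a description. It stood in 19.6% of all 10928 promoters, in 77 of 204 promoters of genes called higher (37.7%) and in 23 of 147 promoters of genes called lower (15.6%). Of the 2 epithelial lists together, 15 of 23 promoters held it (65.2%), and 9 of 11 among the members called higher, those of Ap1m2, Cldn4, Cldn6, Cldn7, Crb3, Epcam, Grhl3, Ocln and Spint2. The E-box was not limited to epithelial genes: of the members of both pluripotency lists called higher, 7 of 15 promoters held it (46.7%). None of 13 promoters of Hox genes called lower held these letters. CCGTTA, the core of the sequence that OVOL proteins are known to bind, stood in 3.59% of all promoters, in 3.43% of those of genes called higher and in 3.40% of those of genes called lower, shares close to each other. The promoters of Epcam, Cldn6 and Ap1m2 are shown because they range from 1 match to 4. They lie at chr17:87635729-87635978 (plus strand), chr17:23679115-23679364 (plus strand) and chr9:21312334-21312583 (minus strand), and capitals mark the E-box on either strand.
Epcam: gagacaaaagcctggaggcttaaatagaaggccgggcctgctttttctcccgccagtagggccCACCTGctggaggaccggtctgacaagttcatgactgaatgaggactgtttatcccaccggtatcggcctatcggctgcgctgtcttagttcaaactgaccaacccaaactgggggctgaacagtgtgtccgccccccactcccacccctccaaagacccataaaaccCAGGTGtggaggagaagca
Cldn6: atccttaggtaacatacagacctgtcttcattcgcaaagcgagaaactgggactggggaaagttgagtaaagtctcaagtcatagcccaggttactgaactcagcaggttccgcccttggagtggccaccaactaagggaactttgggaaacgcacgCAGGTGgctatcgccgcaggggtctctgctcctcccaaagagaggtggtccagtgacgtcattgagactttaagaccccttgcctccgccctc
Ap1m2: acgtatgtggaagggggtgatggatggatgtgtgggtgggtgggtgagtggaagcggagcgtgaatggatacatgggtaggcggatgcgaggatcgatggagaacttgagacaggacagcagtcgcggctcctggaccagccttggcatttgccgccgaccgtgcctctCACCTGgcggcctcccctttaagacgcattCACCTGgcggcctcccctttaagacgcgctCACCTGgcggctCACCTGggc
The 2 matches of Epcam begin 187 and 19 bases before the RefSeq start site, the 1 match of Cldn6 begins 93 bases before it, and the 4 matches of Ap1m2 begin 81, 51, 21 and 9 bases before it. The GENCODE annotation places Cldn6 at chr17:23679249-23682446, so the Cldn6 match lies inside the gene as annotated there.

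Mesenchymal genes were compared as regulators and as structural genes. Of 11 tested EMT transcription factors, 1 fell against TKO, Twist2, with 4.46 and 12.5 TPM in Ovol2a-Tg, 24.2 and 28 TPM in TKO and 1.28 and 1.2 TPM in WT. Its 2 Ovol2a-Tg libraries lay far apart, and both were below both TKO libraries (log2 fold change -1.65 ± 0.31, adjusted p = 0.00244, not called with pseudocount 0.1 at an adjusted p = 0.0843 or in the fit of the 4 libraries alone at an adjusted p = 0.0645). Zeb1, a repressor of Cdh1 and a known target of OVOL2, had 5.61 and 6.12 TPM in Ovol2a-Tg, 12.7 and 11.7 TPM in TKO and 1.02 and 0.379 TPM in WT. Its groups did not overlap and its log2 fold change of -0.94 ± 0.23 (adjusted p = 0.0116) fell just short of the fold asked for. Zeb2, the relative of Zeb1, had 10.3 and 11.6 TPM in Ovol2a-Tg, 10.4 and 11.2 TPM in TKO and 3.6 and 3.7 TPM in WT, with overlapping libraries of Ovol2a-Tg and TKO. Snai1, a repressor that starts EMT, had 61.9 and 75.4 TPM in Ovol2a-Tg, 124 and 111 TPM in TKO and 62.9 and 46.8 TPM in WT and was not called at -0.77. Twist1 had 28 and 35.6 TPM in Ovol2a-Tg, 39.9 and 48.8 TPM in TKO and 8.53 and 7.53 TPM in WT, and Snai2 had 16.2 and 20.9 TPM in Ovol2a-Tg, 23.5 and 24.6 TPM in TKO and 5.24 and 1.72 TPM in WT. Against WT, 6 of the 11 factors were higher in Ovol2a-Tg, among them Zeb1, Zeb2 and Twist1, and 1, Snai3, was lower.

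Among 24 tested genes of mesenchymal structure, 4 fell against TKO and none rose, with a median of -0.21; the count was 7 without Ovol2a-Tg replicate 2. Fn1, the matrix protein fibronectin, had 432 and 529 TPM in Ovol2a-Tg, 1010.1 and 1033 TPM in TKO and 432 and 366 TPM in WT, so that Ovol2a-Tg replicate 1 met the upper WT library and replicate 2 lay above both. Col1a1, a chain of type I collagen, had 54.8 and 118 TPM in Ovol2a-Tg, 236 and 254 TPM in TKO and 12 and 8.3 TPM in WT. Tnc, the matrix protein tenascin C, had 2.54 and 4.9 TPM in Ovol2a-Tg, 13.7 and 17.4 TPM in TKO and 1.25 and 0.443 TPM in WT, and Pdgfra, a growth factor receptor of mesenchyme, had 4.18 and 6.66 TPM in Ovol2a-Tg, 15.2 and 10.8 TPM in TKO and 3.63 and 2.24 TPM in WT. Of these 4, only Tnc was called without Ovol2a-Tg replicate 1, with Fn1 at -0.95, Col1a1 at -1.04 and Pdgfra at -0.85; Pdgfra was lost without TKO replicate 1 too, at -0.91. Vim, the mesenchymal filament vimentin, had 1498 and 1730.1 TPM in Ovol2a-Tg, 1647 and 1586 TPM in TKO and 570.1 and 452 TPM in WT: the libraries of Ovol2a-Tg and TKO overlapped, and both groups were far above WT. The mesenchymal cadherins Cdh2 and Cdh11 had log2 fold changes of -0.45 and -0.91 and were not called, though Cdh11 was called at -1.26 without Ovol2a-Tg replicate 2. Against WT, 8 of the 24 were higher in Ovol2a-Tg and none lower. The summed fibroblast list given above was also lower in Ovol2a-Tg than in TKO, but most of that sum was Col1a1 itself. Dcn of that list was at 0 in both TKO libraries and above 0 in at least 1 Ovol2a-Tg library. The TKO libraries held fewer reads, so this gives no direction. The sum is thus no separate sign of fibroblasts, and their part in these values was not tested.

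Genes of the pluripotency network were higher in Ovol2a-Tg. Of 13 tested genes of core pluripotency, 10 rose against TKO and none fell, with a median log2 fold change of 1.71, and of 17 genes of naive pluripotency 11 rose and none fell, with a median of 1.57. The lists share Zfp42. Pou5f1, the master factor Oct4, had 1144 and 888 TPM in Ovol2a-Tg, 439 and 424 TPM in TKO and 1441 and 1638 TPM in WT (log2 fold change 1.22 ± 0.09, adjusted p = 2.36e-06). Nanog had 124 and 78.6 TPM in Ovol2a-Tg, 25.9 and 27.1 TPM in TKO and 172 and 198 TPM in WT and Sox2, the partner of Oct4, had 66.3 and 48.8 TPM in Ovol2a-Tg, 17.7 and 14.4 TPM in TKO and 84.4 and 89.1 TPM in WT. For all 3, both Ovol2a-Tg libraries were above both TKO libraries and below both WT libraries, and replicate 1 was the higher one. Utf1, a chromatin factor of pluripotent cells, had 66.7 and 43.2 TPM in Ovol2a-Tg, 6.01 and 4.73 TPM in TKO and 97.7 and 116 TPM in WT (log2 fold change 3.11 ± 0.27, adjusted p = 1.31e-05). Of the naive factors, Esrrb had 18.9 and 12.8 TPM in Ovol2a-Tg, 3.02 and 3.25 TPM in TKO and 30.9 and 29.2 TPM in WT, Tfcp2l1 15.6 and 10.1 TPM in Ovol2a-Tg, 3.34 and 1.58 TPM in TKO and 21 and 24.9 TPM in WT and Zfp42 (Rex1) 14.3 and 10.04 TPM in Ovol2a-Tg, 2.58 and 1.62 TPM in TKO and 18.7 and 16.8 TPM in WT. Nr0b1, a nuclear receptor of the naive network, had 9.37 and 5.4 TPM in Ovol2a-Tg, 0.431 and 0.509 TPM in TKO and 7.97 and 8.93 TPM in WT, so that Ovol2a-Tg and WT overlapped. Klf4, a Kruppel-like factor, had 22 and 23.3 TPM in Ovol2a-Tg, 14.5 and 15.7 TPM in TKO and 31.7 and 43.2 TPM in WT and was not called. Against WT, none of the 13 core genes was called in limma in either direction, with a median of -0.41, and 1 of the 17 naive genes, Klf2, was called lower; a missed call does not show that the groups were alike, since Nanog differed from WT by -0.90 ± 0.21 (adjusted p = 0.00948) and Pou5f1 by -0.61 ± 0.09 (adjusted p = 3.70e-04). The calls against TKO were 9 of 13 core and 9 of 17 naive genes without Ovol2a-Tg replicate 1.

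Genes of the formative epiblast, the state that EpiLC model, were partly higher. Of 17 tested, 6 rose against TKO and 1, Fgf15, fell. Dnmt3l, a cofactor of the DNA methyltransferases, had 13.9 and 9.42 TPM in Ovol2a-Tg, 2.32 and 2.53 TPM in TKO and 5.05 and 4.48 TPM in WT, above both other groups. Pim2, a survival kinase, had 71.4 and 28 TPM in Ovol2a-Tg, 15.9 and 13.9 TPM in TKO and 139.7 and 207 TPM in WT, with the 2 Ovol2a-Tg libraries far apart. Otx2, a transcription factor of the epiblast that restrains germ cell entry, had 1.63 and 1.02 TPM in Ovol2a-Tg, 0 and 0.137 TPM in TKO and 6.29 and 9.87 TPM in WT, from 2 reads in TKO. Fgf5 was listed at 0 in both TKO libraries and had 1.78 and 0.639 TPM in Ovol2a-Tg, at least 6.82-fold higher against a floor of 3 reads over the TKO pair. Of the 17, 3 were called higher without TKO replicate 1, as without TKO replicate 2 and in the fit of the 4 libraries alone. Of the 6, 2 were called without Ovol2a-Tg replicate 1, with Otx2 at 0.92 (and at 1.02 without TKO replicate 1), Fgf5 at 0.71 and Pim2 at 0.87 lost; Pim2 was lost without either TKO library too, at 1.62 and 1.44. The call of Fgf5 (adjusted p = 0.0461) did not hold without either TKO library or without a filter on low values either.

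The 3 factors that specify germ cells were not called, while 7 of 24 early germ cell genes rose. Prdm1 (Blimp1), the repressor that shuts off the somatic program, had 12.2 and 14.8 TPM in Ovol2a-Tg, 10.1 and 10.9 TPM in TKO and 30.3 and 25.9 TPM in WT. Prdm14 had 18 and 16 TPM in Ovol2a-Tg, 10.8 and 9.45 TPM in TKO and 12.5 and 12.7 TPM in WT, and Tfap2c, the third factor of the trio, had 27.4 and 25.8 TPM in Ovol2a-Tg, 11.9 and 14.4 TPM in TKO and 44.1 and 43.7 TPM in WT. Ovol2a-Tg lay above TKO in all 3 without overlap, as in 28.9% of all tested genes. The log2 fold changes were 0.33 ± 0.21, 0.70 ± 0.15 and 0.97 ± 0.20 (limma adjusted p = 0.33, 0.00547 and 0.00481). Tfap2c came close to the fold asked for, and it passed with quantile scaling (1.03) and with pseudocount 0.1 (1.02). It was at 1.01 without Ovol2a-Tg replicate 2 and at 1.10 without TKO replicate 2. Dppa3 (Stella), a marker of early germ cells that protects DNA methylation, had 11.4 and 9.33 TPM in Ovol2a-Tg, 0.947 and 0.671 TPM in TKO and 18 and 20.4 TPM in WT. Its TKO values rest on 1 and 3 reads, and the log2 fold change was 2.65 ± 0.26 (adjusted p = 1.98e-05). Dppa5a, an RNA-binding protein of pluripotent and germ cells, had 444 and 306 TPM in Ovol2a-Tg, 98.2 and 61.8 TPM in TKO and 628 and 730.5 TPM in WT; Dppa3 and Dppa5a also stand on the naive list. The X-linked homeobox genes Rhox5, Rhox6 and Rhox9 rose as well. Rhox5 had 177 and 115 TPM in Ovol2a-Tg, 53.2 and 48 TPM in TKO and 17.4 and 25.9 TPM in WT, and Rhox6 had 8.11 and 6.1 TPM in Ovol2a-Tg, 0.895 and 0.423 TPM in TKO and 1.95 and 1.45 TPM in WT, from 3 reads in TKO. Both were above WT too, as was Rhox9 at 8.7 and 7.16 TPM in Ovol2a-Tg, 0.878 and 2.07 TPM in TKO and 2.87 and 1.07 TPM in WT. Tdrd5 and Tdrd12, of the germ line piRNA machinery, completed the 7, and Ifitm1, a surface marker of early germ cells and mesoderm, fell. Nanos3, which protects germ cells from death, had 6.78 and 5.81 TPM in Ovol2a-Tg, 3.18 and 7.52 TPM in TKO and 9.81 and 9.05 TPM in WT with overlapping libraries. Dnd1, which binds germ cell mRNA, had 27.6 and 25.8 TPM in Ovol2a-Tg, 27.9 and 31 TPM in TKO and 43.3 and 52.7 TPM in WT, and Kit, the receptor that germ cells need to survive, had 5.88 and 9.64 TPM in Ovol2a-Tg, 14.3 and 13.3 TPM in TKO and 8.78 and 12.1 TPM in WT; neither was called, though Kit was called at -1.11 without Ovol2a-Tg replicate 2. With Ovol2a-Tg replicate 1 left out, 4 of the 24 were called higher and none lower, with Rhox9 at 1.76 lost (adjusted p = 0.12). Rhox9 was not called without TKO replicate 1 either, at 1.53.

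Primitive streak genes had no common direction. Of 24 tested, 3 rose and 1 fell against TKO, with a median of -0.0047 beside -0.0075 for all tested genes. Eomes, a transcription factor of the early streak, had 29 and 14.5 TPM in Ovol2a-Tg, 3.75 and 4.68 TPM in TKO and 43.7 and 61.7 TPM in WT. Both Ovol2a-Tg libraries were above TKO and below WT, and they differed from each other (log2 fold change 2.05 ± 0.31, adjusted p = 6.31e-04). Tdgf1, the Nodal coreceptor Cripto, had 785 and 523 TPM in Ovol2a-Tg, 248 and 238 TPM in TKO and 803 and 869 TPM in WT, and Lefty2, a Nodal antagonist, had 90.8 and 55.7 TPM in Ovol2a-Tg, 28 and 23.3 TPM in TKO and 81.6 and 105 TPM in WT. T had 897 and 651 TPM in Ovol2a-Tg, 519.6 and 445 TPM in TKO and 1159 and 1279 TPM in WT and was not called at 0.67 ± 0.35. Mixl1, a homeobox gene of the streak, had 177 and 141 TPM in Ovol2a-Tg, 162 and 135 TPM in TKO and 287 and 248 TPM in WT with overlapping libraries, and Mesp1, of nascent mesoderm, had 82 and 95.4 TPM in Ovol2a-Tg, 188 and 174 TPM in TKO and 87.2 and 51.1 TPM in WT and was not called at -1.02 (adjusted p = 0.18), though it was in the fits of the 4 libraries alone (adjusted p = 0.0146) and of all 54 (adjusted p = 0.0368). In a list of 16 genes of the TGF-beta and Nodal pathway, 4 rose: Lefty1, Lefty2, Tdgf1 and Gdf3, a Nodal-related ligand. Lefty1 had 54.4 and 29.6 TPM in Ovol2a-Tg, 9.65 and 10.8 TPM in TKO and 48.6 and 86.3 TPM in WT, and Gdf3 had 20.1 and 16 TPM in Ovol2a-Tg, 6.24 and 3.82 TPM in TKO and 19.97 and 19.8 TPM in WT. The ligands Tgfb2 and Bmp7 fell, with 2.39 and 4.88 TPM in Ovol2a-Tg, against 13.3 and 12.2 TPM in TKO and 10.5 and 20.5 TPM in Ovol2a-Tg, against 42.8 and 42.2 TPM in TKO, while WT had 1.16 and 1.46 TPM of Tgfb2 and 12.9 and 14.6 TPM of Bmp7.

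Genes of lateral and extraembryonic mesoderm were lower in Ovol2a-Tg. Of 28 tested, 11 fell against TKO and none rose, with a median of -0.81. Tbx4, a T-box factor of the allantois and hindlimb, had 0.709 and 1.47 TPM in Ovol2a-Tg, 9.75 and 14.6 TPM in TKO and 0.388 and 0.0966 TPM in WT (log2 fold change -2.65 ± 0.30, adjusted p = 5.44e-05). Foxf1, a forkhead factor of lateral and extraembryonic mesoderm, had 34.3 and 63.9 TPM in Ovol2a-Tg, 117 and 124 TPM in TKO and 8.16 and 7.13 TPM in WT. Plac1, a placental gene on the X chromosome, had 11.3 and 36.3 TPM in Ovol2a-Tg, 87.6 and 117 TPM in TKO and 1.18 and 0.588 TPM in WT, and Pitx1, a hindlimb regulator, had 0.371 and 0.923 TPM in Ovol2a-Tg, 6.96 and 5.53 TPM in TKO and 0.516 and 0.128 TPM in WT. Both Ovol2a-Tg libraries lay below both TKO libraries in each case, and replicate 2 lay nearer to TKO. Hand1, an abundant factor of extraembryonic mesoderm, had 388 and 775 TPM in Ovol2a-Tg, 1308 and 1469 TPM in TKO and 141 and 80.9 TPM in WT. It was not called at -1.34 ± 0.47 (adjusted p = 0.0859), nor was Isl1, of cardiac and lateral mesoderm, at -1.13 ± 0.45 (adjusted p = 0.11); both were called in the fit of all 54 libraries and in limma-voom on reads, and Isl1 also in the fit of the 4 libraries alone (adjusted p = 0.0199). Osr1, of intermediate mesoderm, had 0.328 and 1.03 TPM in Ovol2a-Tg, against 3.85 and 5.18 TPM in TKO. Mest, an imprinted mesoderm gene, had 138 and 294 TPM in Ovol2a-Tg, 584 and 577 TPM in TKO and 20.8 and 20.6 TPM in WT, and Bmp4, the ligand that induces germ cells and extraembryonic mesoderm, had 81.5 and 123 TPM in Ovol2a-Tg, 207 and 203 TPM in TKO and 34 and 22.6 TPM in WT. Without Ovol2a-Tg replicate 1, 5 members were called lower and 1 higher, with Foxf1 at -0.90, Mest at -0.98 and Bmp4 at -0.73 lost. Bmp4 was also lost without TKO replicate 1 (-1.01, adjusted p = 0.14) and without TKO replicate 2 (-1.04, adjusted p = 0.12). Against WT, 10 of the 28 were higher in Ovol2a-Tg and none was lower.

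Of 16 tested genes of blood and endothelium, 4 fell and none rose. Tal1, a master factor of blood, had 0.193 and 0.397 TPM in Ovol2a-Tg, against 1.81 and 3.04 TPM in TKO, Lmo2, its partner, 5.78 and 7.29 TPM in Ovol2a-Tg, against 14.3 and 19.9 TPM in TKO, and Cxcr4, a chemokine receptor of migrating mesoderm and germ cells, 6.0 and 6.44 TPM in Ovol2a-Tg, against 19.6 and 16 TPM in TKO. In all 3 the groups did not overlap. Etv2, which starts the endothelial fate, had 10.7 and 12.7 TPM in Ovol2a-Tg, against 28.1 and 35.2 TPM in TKO, but its call (adjusted p = 0.048) was lost when any 1 of the 4 libraries was left out, at -1.25 and -1.47 without Ovol2a-Tg replicates 1 and 2 and -1.52 and -1.20 without TKO replicates 1 and 2. Kdr, the receptor of vascular progenitors, had 3.83 and 4.22 TPM in Ovol2a-Tg, against 3.84 and 6.61 TPM in TKO with overlapping libraries.

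**Figure D3:**
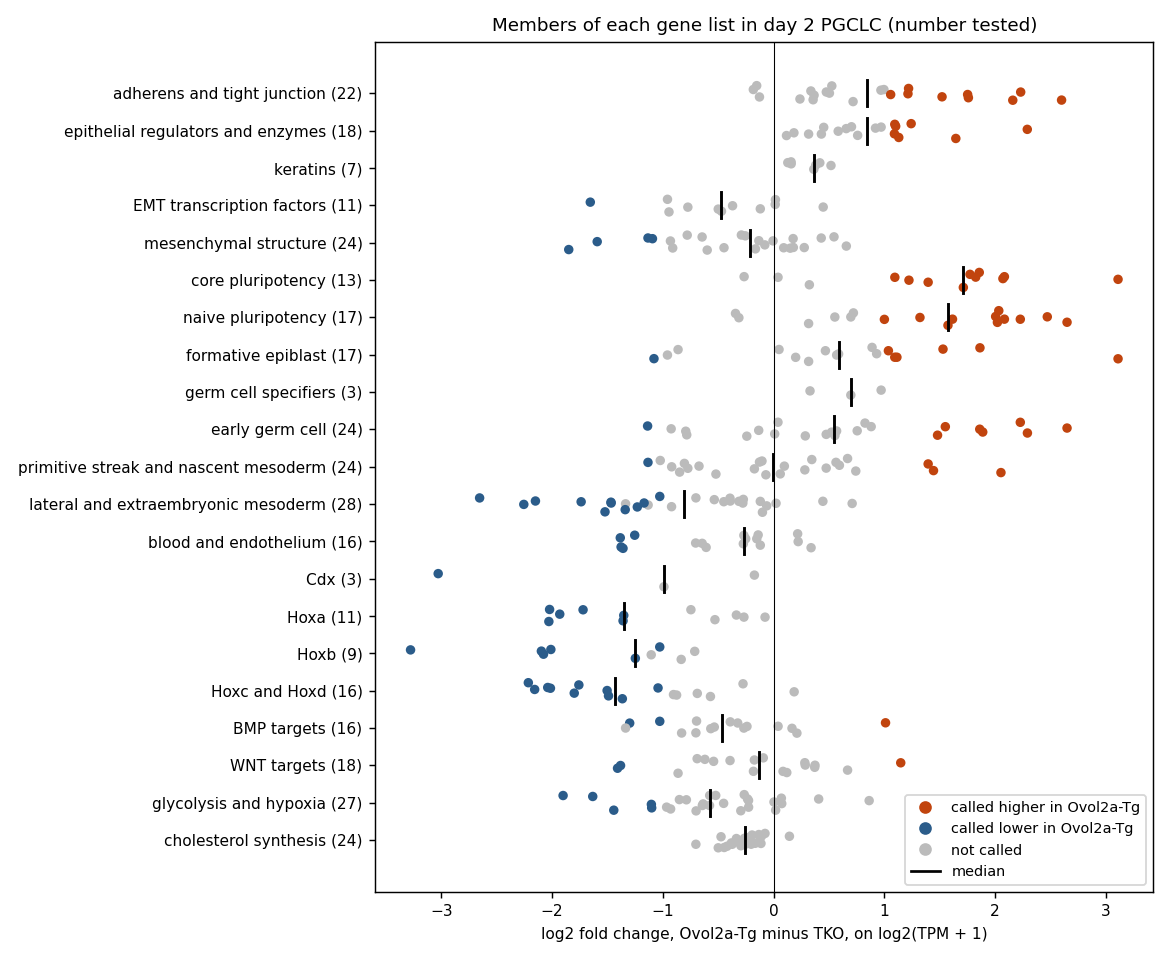
Log2 fold change of every tested member of 21 gene lists, Ovol2a-Tg minus TKO in day 2 PGCLC on log2(TPM + 1), 1 point per gene, with black bars at the list medians and the number tested in brackets. Colours mark genes called higher or lower in Ovol2a-Tg; the medians lie at 1.71 for core pluripotency and 0.84 for both junction genes and epithelial regulators, and at -1.43 for Hoxc and Hoxd genes.

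The posterior program of Cdx and Hox genes was lower in Ovol2a-Tg. Cdx genes encode homeobox factors that switch on posterior Hox genes. Cdx4 had 8.85 and 23.2 TPM in Ovol2a-Tg, 132 and 119 TPM in TKO and 3.17 and 1.58 TPM in WT (log2 fold change -3.03 ± 0.31, adjusted p = 3.15e-05), so that Ovol2a-Tg lay far below TKO and still above WT. Cdx2 had 235 and 313 TPM in Ovol2a-Tg, 559.9 and 519.6 TPM in TKO and 193 and 169.5 TPM in WT and was not called at -0.99 ± 0.23 (adjusted p = 0.0109), though it was called at -1.20 without Ovol2a-Tg replicate 2. Cdx1 had 91.6 and 87.8 TPM in Ovol2a-Tg, 104 and 98.5 TPM in TKO and 201 and 219 TPM in WT with no call between Ovol2a-Tg and TKO, and both were below WT. Of 36 tested Hox genes, 22 fell against TKO and none rose: 6 of 11 Hoxa, 6 of 9 Hoxb and 10 of 16 Hoxc and Hoxd genes, with medians of -1.35, -1.25 and -1.43. These counts were 6, 4 and 6 without Ovol2a-Tg replicate 1.

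Hoxb6 (chr11:96292476-96301569, plus strand) showed the largest fall of any gene that met the rule for named genes. It had 0.811 and 6.56 TPM in Ovol2a-Tg, 39.2 and 31 TPM in TKO and 0.319 and 0.238 TPM in WT (log2 fold change -3.28 ± 0.44, adjusted p = 2.83e-04), so that replicate 1 was near WT, whose libraries held 1 read each, and replicate 2 about midway to TKO on the log scale. Hoxd9 had 9.94 and 23.7 TPM in Ovol2a-Tg, 73.7 and 76.8 TPM in TKO and 4.21 and 2.85 TPM in WT and Hoxb8 2.99 and 4.74 TPM in Ovol2a-Tg, 21.7 and 17 TPM in TKO and 3.03 and 1.19 TPM in WT. Hoxb9 had 0.886 and 2.37 TPM in Ovol2a-Tg, 9.75 and 9.82 TPM in TKO and 2.03 and 0.233 TPM in WT. These 3 also had replicate 2 nearer to TKO, while Ovol2a-Tg and TKO did not overlap. The posterior genes of the Hoxa cluster were scarce in both lines: Hoxa9 had 0.23 and 0.992 TPM in Ovol2a-Tg, against 5.76 and 5.04 TPM in TKO, Hoxa10 0.289 and 0.749 TPM in Ovol2a-Tg, against 5.18 and 4.31 TPM in TKO, Hoxa11 0.288 and 0.453 TPM in Ovol2a-Tg, against 6.09 and 3.36 TPM in TKO and Hoxa13 0.628 and 0.502 TPM in Ovol2a-Tg, against 4.13 and 4.18 TPM in TKO. Hoxa6 and Hoxc11 had no read in either Ovol2a-Tg library and were at least 8.64-fold and 5.54-fold lower than in TKO, against a floor of 3 reads over the Ovol2a-Tg pair. Hoxb1, the most anterior gene of the Hoxb cluster, had 83.6 and 93.3 TPM in Ovol2a-Tg, 153 and 164 TPM in TKO and 71.4 and 64.8 TPM in WT and was not called (-0.83 ± 0.30, adjusted p = 0.0812). With pseudocount 0.1 the calls of Hoxb7 (adjusted p = 0.0536) and Hoxb9 (adjusted p = 0.0856) were lost, with larger fold changes of -2.78 and -2.66, and 3 of 9 Hoxb genes were called.

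**Figure D4:**
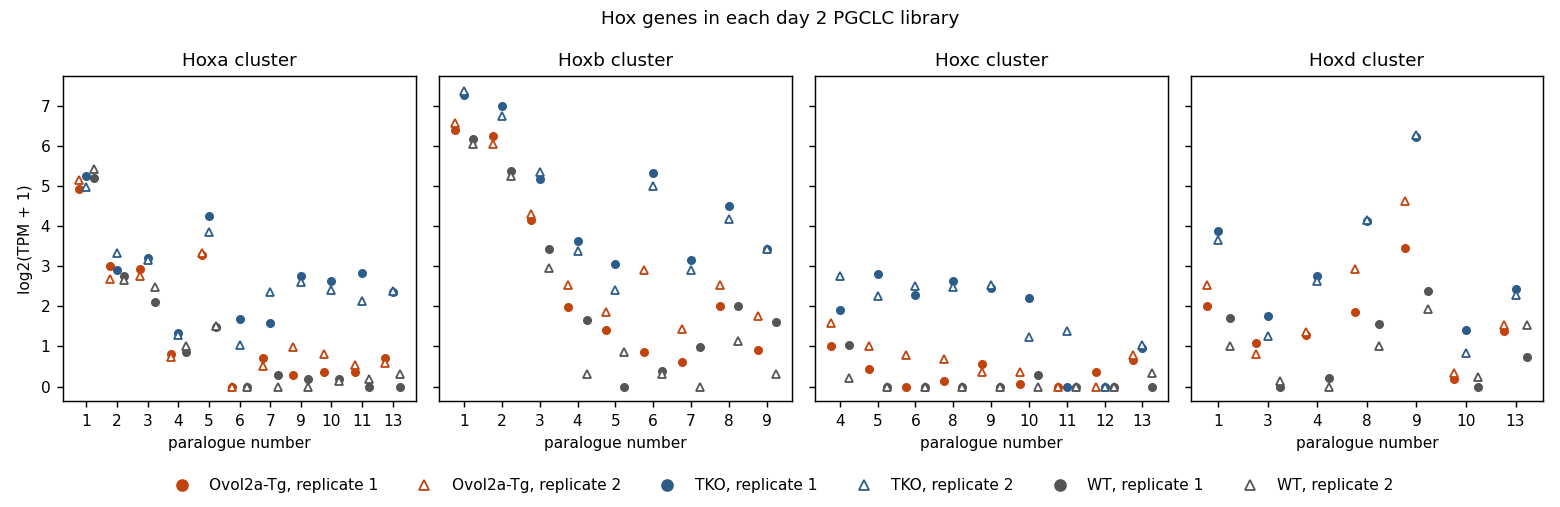
Log2(TPM + 1) of the tested Hox genes in each day 2 PGCLC library, by cluster and paralogue number, for Ovol2a-Tg, TKO and WT, with circles for replicate 1 and triangles for replicate 2. Apart from Hoxc12, from about paralogue 4 on the Ovol2a-Tg points lie between those of TKO and WT or with those of WT, and for Hoxb6 the Ovol2a-Tg points are far apart at 0.811 and 6.56 TPM.

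Targets of the inducing signals held few calls, in both directions. Of 16 tested BMP targets, 1 rose and 2 fell, beside 1.89% higher and 1.41% lower among all tested genes. Id1, a direct target of BMP, had 330.01 and 299.5 TPM in Ovol2a-Tg, 512 and 612 TPM in TKO and 810.01 and 905 TPM in WT, and at -0.83 ± 0.12 (adjusted p = 5.84e-04) it passed the p but not the fold; against WT it was lower at -1.44 ± 0.12. Id2 had 131 and 151 TPM in Ovol2a-Tg, 153 and 181 TPM in TKO and 212 and 222 TPM in WT and Id3 559.6 and 520.2 TPM in Ovol2a-Tg, 495 and 467 TPM in TKO and 599.8 and 698 TPM in WT. Bambi, a decoy receptor that BMP induces, fell with 22.7 and 40.03 TPM in Ovol2a-Tg, 73.6 and 78 TPM in TKO and 13.7 and 13.9 TPM in WT, and Id4 rose with 10.5 and 9.76 TPM in Ovol2a-Tg, 3.27 and 6.17 TPM in TKO and 30.5 and 27.5 TPM in WT. Without Ovol2a-Tg replicate 1, Bambi (-0.90), Id4 (0.96) and Bmp4, the other BMP target that fell (-0.73), were all under the fold asked for. Id4 was under it without TKO replicate 1 too (0.64). Of 18 WNT targets, 1 rose and 2 fell, beside the same shares. Nkd1, an inhibitor that WNT induces, had 22.4 and 34.1 TPM in Ovol2a-Tg, against 72.1 and 78 TPM in TKO, and the growth regulator Myc had 42 and 59.1 TPM in Ovol2a-Tg, against 139 and 124 TPM in TKO; Sp8, a zinc finger factor, rose with 30.5 and 18.9 TPM in Ovol2a-Tg, against 13.1 and 8.0 TPM in TKO, a call lost without Ovol2a-Tg replicate 1 (0.82) or TKO replicate 2 (0.82). Axin2 and Lef1, 2 further targets, had log2 fold changes of -0.69 and -0.86 and were not called.

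Genes of glycolysis and of the response to low oxygen were partly lower. Of 27 tested, 5 fell against TKO and none rose, with a median of -0.58. Bnip3, a mitochondrial protein that hypoxia induces, had 29.1 and 16 TPM in Ovol2a-Tg, 68.8 and 102 TPM in TKO and 23 and 33.1 TPM in WT. Vegfa, the vascular growth factor, had 7.83 and 8.89 TPM in Ovol2a-Tg, 23.9 and 24.9 TPM in TKO and 4.34 and 6.03 TPM in WT. Aldoc and Pgk1, enzymes of glycolysis, had 5.29 and 5.94 TPM in Ovol2a-Tg, against 16.7 and 22.7 TPM in TKO and 692 and 582 TPM in Ovol2a-Tg, against 1229 and 1516 TPM in TKO, and Pfkl, another glycolytic enzyme, was the fifth. The count was 8 without TKO replicate 1 and 3 without TKO replicate 2. Pgk1 was not called without Ovol2a-Tg replicate 2 (-0.98) or TKO replicate 2 (-0.95). In this list Ovol2a-Tg did not differ from WT by any call in limma (0 of 27; Vegfa passed the p alone, adjusted p = 0.0324). None of 24 genes of cholesterol synthesis and none of 18 p53 targets was called in limma against TKO, with medians of -0.26 and 0.22. The glycolysis list was not particular to PGCLC. Against TKO, 6 of its 27 genes were lower and 1 higher in Ovol2a-Tg ESC, and 2 were lower and none higher in Ovol2a-Tg EpiLC. The test of the difference between PGCLC and EpiLC effects called 1 of the 27 higher and 1 lower.

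Of 24 tested imprinted genes, 4 fell against TKO and none rose; without Ovol2a-Tg replicate 1, 2 were called lower and 1 higher. Dlk1, a growth regulator made by the paternal allele, had 22.6 and 55.9 TPM in Ovol2a-Tg, 171 and 178 TPM in TKO and 8.54 and 6.52 TPM in WT, and Mest is given above. Nnat, a paternally made membrane protein, had 1.3 and 0.705 TPM in Ovol2a-Tg, 4.64 and 2.74 TPM in TKO and 24.9 and 28 TPM in WT, and Asb4 had 9.12 and 9.06 TPM in Ovol2a-Tg, against 16.3 and 24.2 TPM in TKO. Nnat was lost without Ovol2a-Tg replicate 2 (-0.999) or TKO replicate 1 (-0.92), and Asb4 without Ovol2a-Tg replicate 1 (-1.05, adjusted p = 0.0615) or TKO replicate 2 (-0.78). Y-linked genes were below WT in both lines. Ddx3y, a Y-linked RNA helicase, had 6.49 and 4.16 TPM in Ovol2a-Tg, 1.0 and 1.77 TPM in TKO and 23.2 and 20.4 TPM in WT and was called higher than in TKO, and Eif2s3y, a Y-linked translation factor, had 1.21 and 1.49 TPM in Ovol2a-Tg, 0.874 and 0.826 TPM in TKO and 26.4 and 27.5 TPM in WT. Against WT all 4 tested Y-linked genes were lower in Ovol2a-Tg.

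The remaining lists are given as counts, beside 1.89% higher and 1.41% lower among all tested genes. Surface ectoderm genes (16 tested) had 3 higher and 2 lower; of these, Foxi3, a forkhead factor of the early ectoderm, had 9.51 and 8.12 TPM in Ovol2a-Tg, against 3.21 and 3.49 TPM in TKO and Dlx3, a homeobox factor, had 2.76 and 7.63 TPM in Ovol2a-Tg, against 12.2 and 11.5 TPM in TKO. No surface ectoderm gene was called in limma without Ovol2a-Tg replicate 1, with Foxi3 at 1.07 and Dlx3 at -0.57, and Dlx3 was lost without TKO replicate 1 (-1.14) or 2 (-1.21) as well. The trophoblast list (13) had 1 higher, Eomes, and 2 lower, Plac1 and Dlx3. The endoderm list (12) had 2 higher, Cldn6 and Otx2, which stand on other lists too, and the neural list (17) had 1 lower, Crabp1. Sox17 of endoderm had 0.826 and 1.13 TPM in Ovol2a-Tg, against 1.7 and 2.81 TPM in TKO and was not called. The Notch list (17) had 1 higher, the ligand Jag2 with 5.74 and 4.95 TPM in Ovol2a-Tg, against 2.48 and 1.85 TPM in TKO, lost without Ovol2a-Tg replicate 1 (0.92) or TKO replicate 2 (0.86). The FGF list (18) had 1 higher, Fgf5, the immediate early list (20) 1 higher, Ctgf with 59.7 and 52 TPM in Ovol2a-Tg, against 24.2 and 21.7 TPM in TKO, and the DNA methylation list (9) 1 higher, Dnmt3l. The histone list (23) had 1 lower, Hist1h1a with 0.221 and 0.379 TPM in Ovol2a-Tg, against 3.12 and 2.21 TPM in TKO. It rests on 2 and 3 reads in Ovol2a-Tg and 3 and 9 in TKO. Its call was lost with pseudocount 0.1 (limma adjusted p = 0.0802) and without Ovol2a-Tg replicate 1 (-1.40) or TKO replicate 1 (-1.31). The early cleavage stage list (8) had no call in limma.

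Beyond the lists, the largest rises included Chrna9, Zfp534, Mup6, Tdh and Nt5e. Chrna9, a subunit of nicotinic acetylcholine receptors (chr5:65934921-65977326, plus strand), had 28.7 and 24.8 TPM in Ovol2a-Tg, 0.387 and 0 TPM in TKO and 0.631 and 2.36 TPM in WT. Its TKO value rests on 1 read against 1225 in Ovol2a-Tg, a ratio of 364 with a 95% counting interval of 65.2 to 14400.0. The gene was also high in the EpiLC of Ovol2a-Tg, at 18.5 and 20.9 TPM, against 0.397 and 0.93 TPM in TKO EpiLC, and low in PGCLC of Ovol2b-Tg, at 0.361 and 0.936 TPM, and of Ovol2a/2b-Tg, at 0.789 and 0.914 TPM. Zfp534, a KRAB zinc finger gene, had 55.4 and 40.8 TPM in Ovol2a-Tg, 4.84 and 4.0 TPM in TKO and 23.9 and 22.5 TPM in WT; near-identical copies of such genes can share reads. Tdh, the threonine dehydrogenase of mouse pluripotent cells, had 62.9 and 53.7 TPM in Ovol2a-Tg, 12.8 and 7.88 TPM in TKO and 59.3 and 56.7 TPM in WT, in the WT range. Nt5e, the surface enzyme that makes adenosine, had 16.9 and 9.39 TPM in Ovol2a-Tg, 2.16 and 1.38 TPM in TKO and 63.3 and 75.7 TPM in WT. Mup6 had 22.2 and 16 TPM in Ovol2a-Tg, 2.87 and 2.03 TPM in TKO and 20.3 and 19.8 TPM in WT, and as a member of a family of near-identical genes it is uncertain.

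The largest falls outside the mesoderm, Cdx and Hox lists were Gfra3, S1pr3, BC048507, Ccdc109b, Crabp1 and Chac1. Gfra3, a receptor of the GDNF family, had 1.37 and 1.66 TPM in Ovol2a-Tg, 23.3 and 20.7 TPM in TKO and 0.211 and 0.158 TPM in WT (log2 fold change -3.19 ± 0.20, adjusted p = 5.82e-07), and here the 2 Ovol2a-Tg libraries lay close together. S1pr3, a receptor for a sphingolipid signal, had 2.67 and 5.67 TPM in Ovol2a-Tg, 23.7 and 27.3 TPM in TKO and 0.188 and 0.912 TPM in WT. Crabp1, which binds retinoic acid, had 28.4 and 47.9 TPM in Ovol2a-Tg, 177 and 191 TPM in TKO and 8.93 and 5.88 TPM in WT, and Chac1, a glutathione enzyme of the stress response, had 3.1 and 5.1 TPM in Ovol2a-Tg, 25.6 and 20.7 TPM in TKO and 4.29 and 6.21 TPM in WT. Ccdc109b, the mitochondrial calcium channel subunit also named Mcub, had 2.13 and 6.29 TPM in Ovol2a-Tg, against 24.1 and 21.8 TPM in TKO. With pseudocount 0.1, Ccdc109b and Plac1 passed the fold but not the test (adjusted p = 0.0889 and 0.0732). BC048507 had 1.38 and 1.73 TPM in Ovol2a-Tg, 18.1 and 8.56 TPM in TKO and 18.3 and 5.79 TPM in WT, with overlapping libraries of TKO and WT, and its call was lost when any 1 of the 4 libraries was left out, at -2.31 and -2.51 without Ovol2a-Tg replicates 1 and 2 and -1.91 and -2.91 without TKO replicates 1 and 2. Crabp1 was lost without Ovol2a-Tg replicate 1 (-1.92), TKO replicate 1 (-2.34) or TKO replicate 2 (-2.23).

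Set against WT, Ovol2a-Tg PGCLC differed in 494 genes (3.43% of those tested), 302 higher (2.09%) and 192 lower (1.33%), while TKO differed from WT in 1518 (10.5%), 804 higher (5.58%) and 714 lower (4.95%). These comparisons share libraries, so the values are given side by side only. Without Ovol2a-Tg replicate 2 the count against WT was 290. The junction genes stood at a median log2 difference from WT of -1.49 in Ovol2a-Tg and -2.30 in TKO, core pluripotency genes at -0.41 in Ovol2a-Tg and -1.78 in TKO, and lateral mesoderm genes at 0.78 in Ovol2a-Tg and 1.70 in TKO. Beside Ovol2, Chrna9, Plac1 and Mest, the largest rises over WT were Igf2, a growth factor, with 85.1 and 190.1 TPM in Ovol2a-Tg, 73.5 and 81.6 TPM in TKO and 17.8 and 12 TPM in WT, and Col1a1. The largest falls under WT were Ap1m2, Cldn7, Cldn6, Nnat, Eif2s3y and Nefm, a neurofilament gene, with 1.53 and 1.37 TPM in Ovol2a-Tg, 1.68 and 1.13 TPM in TKO and 27.1 and 24.5 TPM in WT. Nefm had overlapping libraries of Ovol2a-Tg and TKO, and both lines were far from WT.

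Ovol2a-Tg and Ovol2b-Tg PGCLC, which are named after the 2 isoforms, differed in 134 genes (0.930%), 53 higher (0.368%) and 81 lower (0.562%) in Ovol2a-Tg. This count was 25 without Ovol2a-Tg replicate 1, without replicate 2 it was 225, and without Ovol2b-Tg replicate 2 it was 77, so its size rested on single libraries. The lines also differed in the level of the transgene's row, with 900.4 and 867 TPM of Ovol2 in Ovol2a-Tg, against 345 and 296 TPM in Ovol2b-Tg, and isoform and level cannot be told apart. Cdh1 had 98.4 and 90.3 TPM in Ovol2a-Tg and 54.8 and 58 TPM in Ovol2b-Tg (log2 difference 0.73 ± 0.11, adjusted p = 0.00237), short of the fold for a call. Utf1 had 66.7 and 43.2 TPM in Ovol2a-Tg and 17.3 and 17 TPM in Ovol2b-Tg, and was called at 1.59, though not without Ovol2a-Tg replicate 1 (1.28). Hoxb6 had 0.811 and 6.56 TPM in Ovol2a-Tg and 18.1 and 23.4 TPM in Ovol2b-Tg. Plac1, Cdx4 and Capn6, a member of the calpain family, were lower in Ovol2a-Tg, at log2 differences of -1.94, -1.82 and -1.93. Without Ovol2b-Tg replicate 2 the calls of Hoxb6 (-2.37), Cdx4 (-1.64) and Plac1 (-2.08) were lost, and without Ovol2a-Tg replicate 1 those of Cdx4 (-1.17) and Plac1 (-1.14); Plac1 was lost without Ovol2b-Tg replicate 1 too (-1.80). Igf2 had 85.1 and 190.1 TPM in Ovol2a-Tg and 636 and 484 TPM in Ovol2b-Tg, and Bnip3 had 29.1 and 16 TPM in Ovol2a-Tg and 95.5 and 82.7 TPM in Ovol2b-Tg. The top rises were Erdr1 and Mid1, neighbours at the pseudoautosomal end of the X chromosome. Erdr1 had 4312 and 4476 TPM in Ovol2a-Tg and 1.86 and 6.03 TPM in Ovol2b-Tg, and Mid1 had 934 and 952 TPM in Ovol2a-Tg and 6.79 and 8.34 TPM in Ovol2b-Tg; copies near that end can share reads. In TKO, Erdr1 had 2516 and 2806 TPM and Mid1 613 and 625 TPM.

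The lines were also compared in EpiLC, before induction. There, Ovol2a-Tg differed from TKO in 111 genes (0.770%), 82 higher (0.569%) and 29 lower (0.201%), and a direct test of the difference between the PGCLC and EpiLC effects called 421 genes (2.92%), 194 with a higher (1.35%) and 227 with a lower effect (1.57%) in PGCLC. Ovol2 was already high in the EpiLC of the transgenic line, at 488 and 502 TPM, against 9.21 and 11.2 TPM in TKO EpiLC. Cdh1 had 356 and 405 TPM in Ovol2a-Tg EpiLC and 336 and 350.4 TPM in TKO EpiLC, a log2 difference of 0.15, so that the effect in PGCLC was larger by 2.01 ± 0.13 (adjusted p = 6.57e-13). Epcam was alike in this, with an effect of -0.01 in EpiLC and a difference of effects of 1.77 ± 0.16. Nanog had 25 and 23.9 TPM in Ovol2a-Tg EpiLC and 44.1 and 39.2 TPM in TKO EpiLC, on the other side of 0 from its PGCLC effect, with a difference of 2.60 ± 0.24 (adjusted p = 2.94e-09). Utf1, abundant in EpiLC at 1255 and 1156 TPM in Ovol2a-Tg and 1297 and 1347 TPM in TKO, was called in PGCLC and not in EpiLC, with a difference of effects of 3.24 ± 0.27 (adjusted p = 6.69e-10). Of the lists, 10 of 13 core pluripotency genes and 6 of 22 junction genes had a higher effect in PGCLC, and 10 of 28 lateral mesoderm genes and 23 of 36 Hox genes a lower one. Some programs differed before induction. In EpiLC, 4 of 17 naive pluripotency genes, 2 of 18 epithelial regulators and 1 of 3 germ cell specifiers were already called higher. Their median log2 fold changes there were 0.732, 0.425 and 0.993. Of core pluripotency and junction genes, 0 of 13 and 1 of 22 were called higher in EpiLC. Of the 64 mesoderm and Hox genes of these lists, 51 were under 1 TPM in all 4 EpiLC libraries. Tbx4 was not among the 51, with 4.56 and 3.52 TPM in Ovol2a-Tg EpiLC and 2.44 and 1.72 TPM in TKO EpiLC. Cdx4 had 0.558 and 0.845 TPM in Ovol2a-Tg and 0.72 and 0.876 TPM in TKO EpiLC, and Foxf1 0.419 and 0.209 TPM in Ovol2a-Tg and 0.328 and 0.96 TPM in TKO EpiLC. Chrna9 was the contrary case, high at both stages, with a difference of effects of 0.90 ± 0.43 (adjusted p = 0.23). Without PGCLC Ovol2a-Tg replicate 1 the 421 became 204.

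As ESC, 590 genes were called between Ovol2a-Tg and TKO (4.09% of those tested), 385 higher (2.67%) and 205 lower (1.42%). Ovol2 had 69.9 and 122 TPM in Ovol2a-Tg ESC, against 3.72 and 6.57 TPM in TKO ESC. Of 22 junction genes 7 were higher and none lower, and of 7 keratins 3 were higher. Cldn7 had 29.99 and 26.8 TPM in Ovol2a-Tg ESC, 1.72 and 2.84 TPM in TKO ESC and 49.6 and 56.4 TPM in WT ESC (log2 difference from TKO 3.18 ± 0.18). Krt18, a keratin of simple epithelia, had 6.5 and 7.0 TPM in Ovol2a-Tg ESC, 1.19 and 1.31 TPM in TKO ESC and 5.7 and 7.94 TPM in WT ESC. Cdh1 had 319 and 320.5 TPM in Ovol2a-Tg ESC and 285 and 266 TPM in TKO ESC and was not called at 0.21 ± 0.09 (adjusted p = 0.0779). Of 18 WNT targets 6 were lower in Ovol2a-Tg ESC and none higher. Lef1, a partner of beta-catenin, had 3.77 and 3.14 TPM in Ovol2a-Tg ESC, 26.2 and 26.8 TPM in TKO ESC and 1.38 and 1.7 TPM in WT ESC, so TKO alone was high. Sp5, a WNT-induced repressor, had 2.59 and 2.93 TPM in Ovol2a-Tg ESC, 15.8 and 9.83 TPM in TKO ESC and 14.2 and 16.6 TPM in WT ESC, so here Ovol2a-Tg alone was low. The fit without each ESC library was not run.

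**Figure D5:**
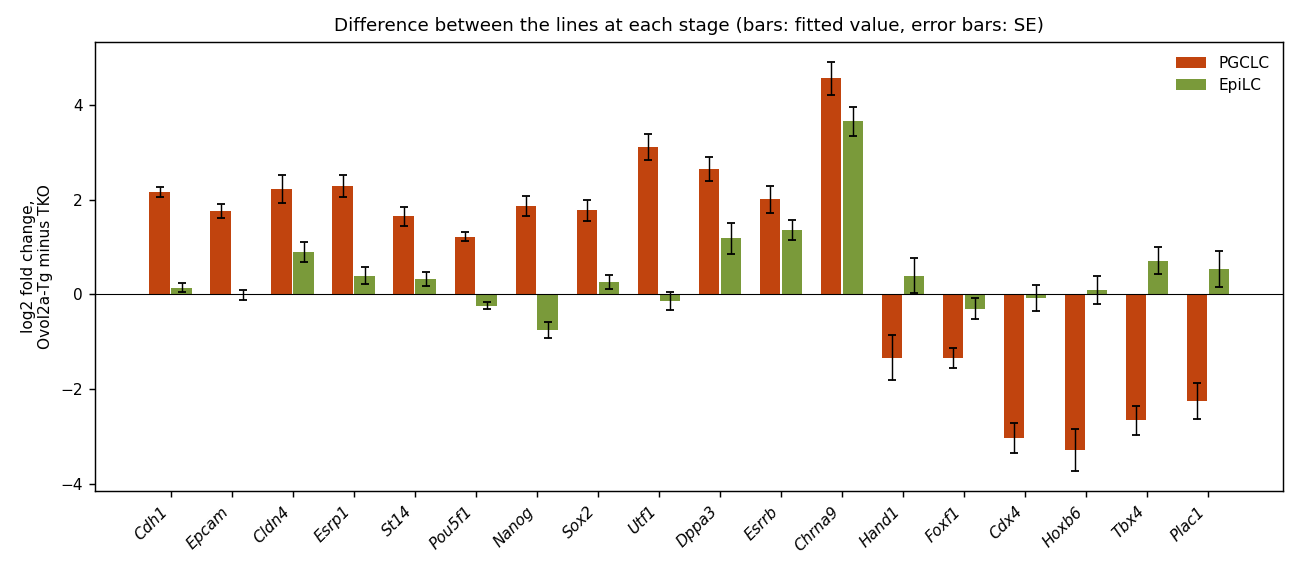
Fitted log2 fold change of Ovol2a-Tg minus TKO in PGCLC and in EpiLC for 18 genes, with error bars for 1 SE, on log2(TPM + 1). Cdh1, Epcam and Utf1 differ in PGCLC and lie near 0 in EpiLC, while Nanog is higher in PGCLC and lower in EpiLC. Cdx4, Hoxb6, Tbx4 and Plac1 are lower in PGCLC, and Chrna9 is high at both stages.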

How the data were processed

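Per the labels' protocols, poly(A)-selected mRNA went into strand-marking (NEBNext Ultra Directional) libraries amplified for 12 PCR cycles. The submitters' processing notes name mm10, HISAT2, featureCounts and edgeR; the sources used here give no tool version, annotation or strand setting. The values deposited by the authors are TPM for 20036 genes in 54 libraries, with no column left unused. Whole reads, needed only for depth and 1 alternative, were recovered from the TPM steps for all 17973 genes above 0, within 0.05 of a read. PGCLC libraries had 2369871 to 26728538 reads; intervals and floors cover counting error only.

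Groups were taken from the sample titles; the cell type tag of 8 libraries differs from the title. The 14416 genes that reached 1 TPM in 2 or more libraries were tested in limma 3.58.1 (R 4.3.3) on log2(TPM + 1), with mean-variance trend and robust shrinkage, in 1 fit of the 18 PGCLC libraries (9 residual degrees of freedom), or of all 54 for the stage difference and the EpiLC and ESC effects (27 residual degrees of freedom). With 2 against 2 libraries a two-sided permutation p cannot go below 0.33, so none was used. The code was tested on simulated data. Alternatives were another pseudocount, no filter, quantile scaling, other sets of libraries, a replicate block, leaving out each library, and limma-voom on reads.

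The members, the 36 gene lists (495 of 554 genes tested), the E-box and the naming rule were chosen with earlier results of these data known. Named were key members of the lists, the 10 largest called rises and falls against TKO without overlap of libraries and with at least 10 TPM in the higher group, up to 4 called members per list, and up to 6 each way in the other comparisons. A few called list members and genes shown as examples beyond this rule (such as Cgn, Crb3, Tdrd5, Klf2, Pfkl and Ifitm1) were named after their values were seen. Python 3.11.15 drew the figures. One called gene is counted in its list and not reported here by name.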

Additional observations from a re-analysis of the deposited data

Results flagged for a closer look

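The difference between Ovol2a-Tg and TKO was not the same in PGCLC and in EpiLC for 421 genes, by limma's test of the difference of effects over all 54 libraries (adjusted p under 0.05 and a difference of at least 1 log2 unit). The count was 204 without PGCLC Ovol2a-Tg replicate 1 and 535 without PGCLC Ovol2a-Tg replicate 2.

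The genes with the largest positive differences of effect, PGCLC minus EpiLC, were Utf1 at 3.24, Ovol2 at 3.21, Nanog at 2.60, Nt5e at 2.51, 1700019D03Rik at 2.33 and Zfp534 at 2.06. Ovol2 stood there although its transgene was high at both stages: in TKO it had 1.52 and 0.835 TPM in PGCLC and 9.21 and 11.2 TPM in EpiLC. In 1700019D03Rik the PGCLC libraries had 15.2 and 8.81 TPM in Ovol2a-Tg, against 4.64 and 1.1 TPM in TKO, and the EpiLC libraries 41.1 and 39 TPM in Ovol2a-Tg and 51.9 and 58.6 TPM in TKO. The Zfp534 result (adjusted p = 0.0273) missed the threshold in 6 of the 8 fits that leave out 1 library, at 1.84 without PGCLC Ovol2a-Tg replicate 1, 2.17 and 1.94 without PGCLC TKO replicates 1 and 2, 1.92 and 2.20 without EpiLC Ovol2a-Tg replicates 1 and 2, and 1.52 without EpiLC TKO replicate 1.

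The largest negative differences of effect were those of Gfra3 at -3.66, Tbx4 at -3.37, Hoxb6 at -3.36, Cdx4 at -2.95, Plac1 at -2.80 and Ccdc109b at -2.57. In EpiLC, Hoxb6 had 0 and 0.128 TPM in Ovol2a-Tg and 0 and 0 TPM in TKO, and Ccdc109b 0.193 and 0.256 TPM in Ovol2a-Tg and 0.067 and 0 TPM in TKO, so the size of these differences depends on the pseudocount. With pseudocount 0.1 the differences of Plac1 (-4.12, adjusted p = 0.136) and Ccdc109b (-3.93, adjusted p = 0.0745) missed the threshold.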

How the results depend on the processing

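Against TKO, the count of 475 was 386 to 572 under 6 other settings and 966 (555 higher, 411 lower) in limma-voom on recovered reads; the cause was not tested. Leaving out 1 library gave 215 to 594 against TKO, 290 to 607 against WT (main 494), 25 to 225 against Ovol2b-Tg (main 134) and 204 to 535 for the difference between stages (main 421). Ovol2a-Tg replicate 1 gave the lowest count in 3 of these comparisons and replicate 2 in that with WT. Replicate numbers do not pair the libraries (correlations of their deviations were -0.0828 to 0.0491), and a fit with the replicate block gave 471, 493, 131 and 419; against TKO, Fgf5, Etv2 and BC048507 lost their call under it. Pseudocount 0.1 moved the share of higher calls to 69.4% of 572 against TKO (57.3% with pseudocount 1), 58.7% of 121 against Ovol2b-Tg (39.6%) and 64% of 336 for the difference between stages (46.1%).

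Counts of called list members moved by more than 1.5 times in 24 of 88 values that left out a library and in 11 of 154 others. Recounting the lists under settings other than quantile scaling was decided after seeing the data; the settings themselves were not. Of the values of single genes, 74 of 764 that left out a library and 38 of 1145 others lost their call. In the fit of the 4 libraries alone, 13 named genes lost their call (adjusted p = 0.0519 to 0.115): Grhl2, Grhl3, Ap1m2, Twist2, Fgf5, Pdgfra, Pim2, Plac1, Dlx3, Sp8, Id4, Mest and Nnat. Signs reversed in 7 genes without a call. Leaving out 1 library, Vim ranged from -0.11 to 0.098 (and was 0.033 in limma-voom), Mixl1 from -0.064 to 0.26, Krt8 from -0.22 to 0.48, Zeb2 from -0.061 to 0.095, Nanos3 from -0.23 to 0.80, Gata3 from -0.0067 to 0.088 and Kdr from -0.60 to 0.054. With 2936638 reads in TKO replicate 1, scarce genes rest on few reads there.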
